A study of Homo sapiens with 24 samples.

Results

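The genes described are those of the cytosolic ribosomal proteins. They were taken as protein-coding genes whose symbol is RPL or RPS followed by a number, with an optional A, X or L at the end, together with RPLP0, RPLP1, RPLP2 and RPSA. RPS27L, pseudogenes and the RPS6K kinases were left out. Of 58721 gene identifiers in the count tables, 80 met the rule. They comprise 31 proteins of the small ribosomal subunit and 49 of the large subunit, among them the tissue-restricted copies RPL3L, RPL10L and RPL39L.

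The cytosolic ribosome translates the mRNAs of the cell and is built in the nucleolus from rRNA and from ribosomal proteins, most of which are present as a single copy per ribosome. Their mRNAs are short and abundant, and most begin with a terminal oligopyrimidine (TOP) tract, a C at the cap followed by a run of C and T (U in the RNA). Through this tract the mTOR pathway and the RNA-binding protein LARP1 adjust translation and stability of the whole class, while transcription is driven by housekeeping promoters and by factors such as MYC and the ETS family.

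A549 is an established human lung adenocarcinoma line, here grown in DMEM or RPMI with serum, and its poly(A) RNA was sequenced as read pairs in 24 libraries. For the knockdowns, 25 nM of siRNA against MYBL2 (siMYBL2, 4 libraries) or FOXM1 (siFOXM1, 4 libraries) was compared with scrambled siRNA (siControl, 4 libraries), and siRNAs against both genes (siBoth, 3 libraries) with scrambled siRNA of that experiment (siControl_Both, 3 libraries). FDI-6, a small molecule that blocks DNA binding of FOXM1, was given at 20 µM for 24 h (FDI6, 3 libraries) and compared with control_FDI6 (3 libraries), which the study names as DMSO. MYBL2 and FOXM1 are transcription factors of cell cycle genes, and the comparisons address which genes depend on them. All groups are of one cell line treated transiently, the siRNA controls received scrambled siRNA, and siMYBL2 and siFOXM1 share the 4 siControl libraries.

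The TOP tract is shown because it is the feature by which this class is recognised, and the examples are the genes on which the results turn. Sequences are from RefSeq on GRCh38.p14, cover 10 bases before and 15 bases from the annotated start, which lies in the first exon, and are written in the direction of transcription. Capitals mark the unbroken run of C and T that begins at the annotated start.
RPS6 (chr9:19380222-19380246, minus strand): gaagttggccCTCTTTTCCgtggcg
RPL3 (chr22:39319609-39319633, minus strand): gccgaccggcCTCTaccggcgggat
RPLP0 (chr12:120201097-120201121, minus strand): ggcgcgaggcCCTTCTCTCgccagg
RPL41 (chr12:56116623-56116647, plus strand): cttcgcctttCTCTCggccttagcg
RPL39 (chrX:119791616-119791640, minus strand): ccgccagcttCCCTCCTCTTCCTTT
RPL36 (chr19:5690285-5690309, plus strand): cggcgccagcCCTTCCgccacggcc
RPL29 (chr3:51995881-51995905, minus strand): cagcccctttCTCTTCCggttctag
RPL4 (chr15:66504841-66504865, minus strand): cgggagtggtaagcacttccttttc

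The run filled all 15 bases shown for RPL39, where the window cuts it, and was 9 bases long in RPS6 and RPLP0, 7 in RPL29, 6 in RPL36, 5 in RPL41 and 4 in RPL3. RPL4 had no run at the annotated start itself, but a run of C and T lies further inside its window. Only the annotated start was examined, so a tract at a start site nearby was missed. The sequence table held 63 of the 80 genes, and 46 of these (73.0%) had a C at an annotated start followed by at least 4 pyrimidines, against 5.14% of 27305 genes in the table. In the window from 250 bases before to 50 bases after the start, 3 words were searched on both strands, and letters shared by different words were allowed. The cell cycle homology word TTTGAA, found in promoters of late cell cycle genes, was in 6 of the 63 (9.52%) against 18.2% of all genes. The forkhead word TAAACA was in 3 (4.76%) against 14.7%, and the ETS word CCGGAAG in 22 (34.9%) against 12.2%. A match describes letters only.

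Between 16487394 and 30140550 read pairs per library were counted on genes, and the 6 libraries of the FDI-6 experiment were the shallowest. MYBL2 read 4.64 to 8.83 CPM (read pairs scaled to a common library size, with TMM factors) in siMYBL2 against 135 to 182 in siControl, and FOXM1 read 10.4 to 13.4 in siFOXM1 against 109 to 142. In siBoth, MYBL2 fell by 4.35 and FOXM1 by 3.37 on the log2 scale. The epithelial markers KRT8, KRT18, EPCAM and CDH1 summed to between 2655 and 8129 CPM per library. The 8 markers of blood, endothelial and fibroblast cells summed to between 5.27 and 60.07, and CD3E had no count. The 8 were not all absent, as the highest mean of a gene among them was 26.58 CPM. The lowest mean of an epithelial marker was 11.41 CPM. CPM were scaled within each experiment, so levels are compared within an experiment and not between them. In bulk RNA, a change in the number of cells of a kind and a change in RNA per cell cannot be told apart.

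Some of the 80 genes were counted only in part, because read pairs that matched more than one gene or place were not assigned. RPL17, RPS10, RPL26 and RPL36A are among 5 genes that share more than 40% of their exonic sequence with a gene of the same strand. For RPS10, RPL36A and RPL17 the named pseudogenes held more counts than the gene itself, so their values are uncertain. Exons of 9 genes overlapped a gene on the opposite strand over more than 15% of their bases, RPL38, RPL10, RPS27A and RPS6 among them. The strand setting of the counting is not given in the sources used here.

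The levels of these genes in A549 cells spanned a wide range. Per kilobase of canonical transcript, the middle value over the 79 genes that passed the filter on low counts was 590 CPM per kb in siControl, with quartiles at 204 and 930. RPS16, a protein of the small subunit head, was highest at 2459 ± 73.9 CPM per kb (SD, n = 4). RPS2, at the mRNA entry side of the small subunit, followed at 1947 ± 174 (SD, n = 4), and RPLP0, the base of the stalk that recruits elongation factors, at 1919 ± 86.4 (SD, n = 4). RPS2 and RPLP0 differed by less than their SDs, while RPS16 lay more than 2 of the larger SD above both. The lowest levels per kilobase were those of RPL3L (0.165 ± 0.0252), RPS10 (1.76 ± 0.591) and RPL36A (5.76 ± 1.52, each SD, n = 4). RPS10 and RPL36A are among the genes counted only in part, so their places in this order are uncertain. The order also depends on the canonical length, which for RPL37 is 7573 bases against a median of 637 over its transcripts. RPL3L, the muscle copy of RPL3, had 4 to 30 counts per library, and RPL10L, a testis copy of RPL10, had no count in 21 of 24 libraries and 1 in the others. RPL39L, a copy of RPL39, was measurable and read 14.0 to 17.6 CPM in siControl.

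The share of all counted pairs that fell on the 80 genes was lower with FDI-6. In FDI6 the share was 5.35%, 5.38% and 5.49%, and in control_FDI6 it was 6.73%, 6.37% and 6.27%. The groups did not overlap, and the means were 5.41% ± 0.0732 and 6.46% ± 0.241 (SD, n = 3 each). In siMYBL2 the share was 4.32%, 4.65%, 4.54% and 4.48%, in siFOXM1 4.24%, 4.51%, 4.75% and 4.35%, and in siControl 4.53%, 4.43%, 4.75% and 4.41%. These 3 groups overlapped, and of the 4 same-numbered pairs the share was higher in the treated library in 2 with siMYBL2 and in 1 with siFOXM1. In siBoth the share was 4.62%, 5.35% and 5.05%, against 4.39%, 4.88% and 4.44% in siControl_Both. These groups overlapped, but the share was higher in siBoth in all 3 same-numbered pairs, with means of 5.00% ± 0.366 and 4.57% ± 0.272 (SD, n = 3 each).

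**Figure D1:**
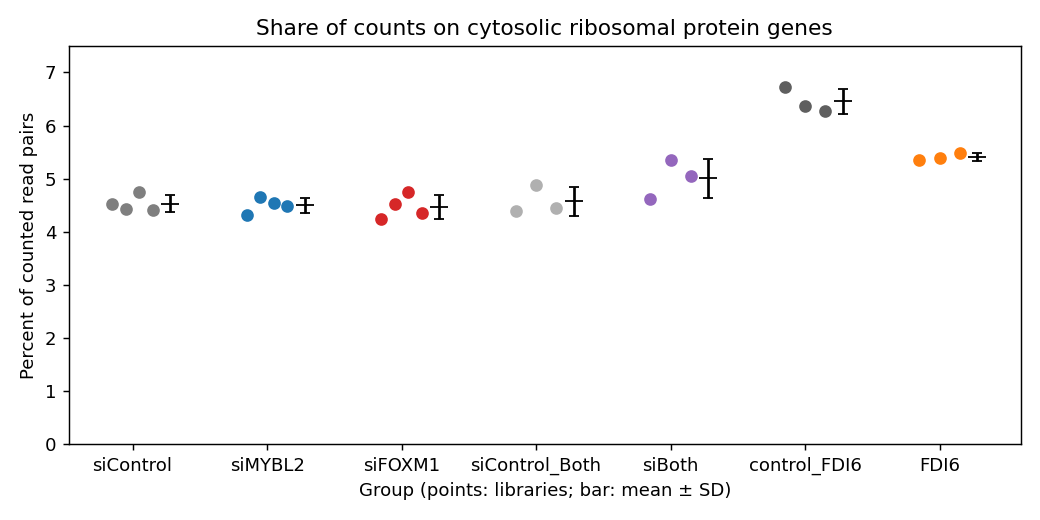
Percent of all read pairs counted on genes that fell on the 80 cytosolic ribosomal protein genes, by group; points are libraries and bars are the mean ± SD. The 3 FDI6 libraries lie between 5.35% and 5.49%, below the 3 control_FDI6 libraries, while the siRNA groups overlap their controls.

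The 4 comparisons differed in how many of these genes changed. With edgeR's quasi-likelihood test and Benjamini-Hochberg adjustment over all genes tested, 63 of the 79 measured genes were downregulated by FDI-6 at an adjusted p under 0.05. Without a block for the replicate number, the same test called 3 of 78 as downregulated by siMYBL2 and no gene by siFOXM1 or siBoth. The shares of all genes tested called lower were 17.9% with FDI-6, 9.53% with siMYBL2, 1.09% with siFOXM1 and 7.77% with siBoth. No gene was upregulated in any of the 4 comparisons. A fold change of 1.5 was also passed by 2 genes, RPL41 and RPL39, both with FDI-6, where 5.77% of all genes tested fell past that fold.

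**Figure D2:**
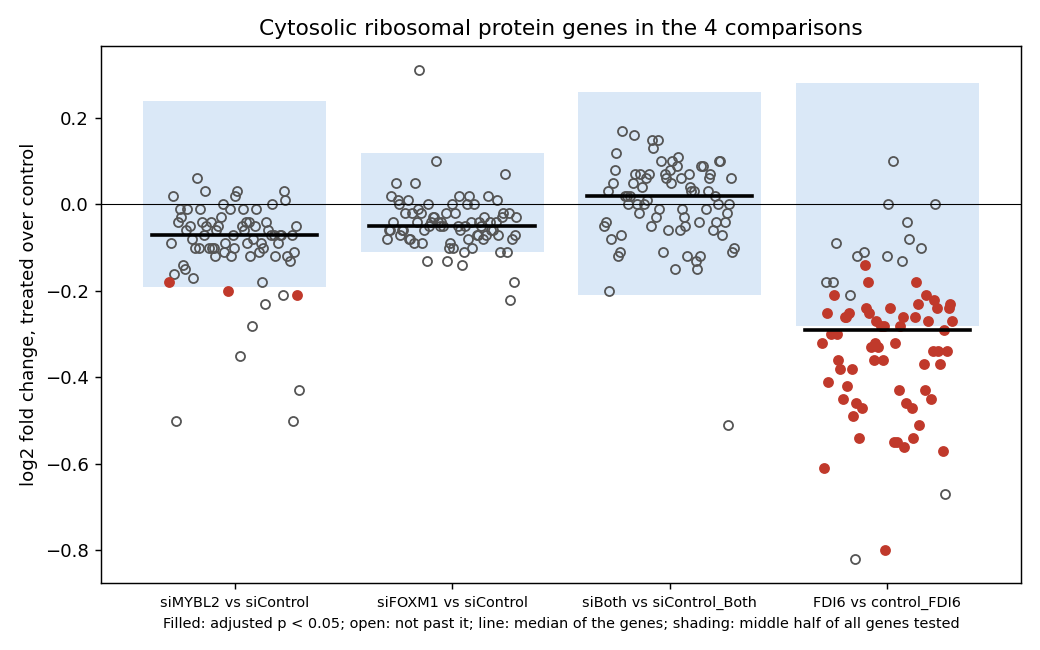
Log2 fold change of each cytosolic ribosomal protein gene that passed the filter, in the 4 comparisons. Filled points passed an adjusted p of 0.05 in the fit without a replicate block. Black lines are medians of the plotted genes (-0.07, -0.05, 0.02 and -0.29 from left to right), and shading spans the middle 50% of all genes tested.

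With FDI-6, genes of both subunits fell. Of all 15240 genes tested, 17.9% were downregulated and 21.0% upregulated, against 79.7% and none of the 79 ribosomal protein genes. These sets were not matched for count level, on which the share called also depends. The median log2 fold change was -0.29, a fall of about 18.1%, while the median of all genes tested was -0.01. In the small subunit 24 of 31 genes fell and in the large subunit 39 of 48, with a median of -0.29 in each. Among called genes the fall ranged from 9.5% to 42.4%. The groups did not overlap for 60 genes, all lower with FDI-6, against 25.0% of all genes tested that were lower and 26.6% that were higher without overlap.

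RPL41, the smallest ribosomal protein, read 232, 357 and 431 CPM in the FDI6 libraries and 681, 554 and 534 CPM in control_FDI6. All 3 treated libraries were below all controls, with FDI6 replicate 1 the lowest. The log2 fold change was -0.80 (SE 0.172, adjusted p = 0.00376, edgeR). RPL39, which lines the tunnel through which the nascent protein leaves, read 107, 128 and 155 CPM against 239, 173 and 185. These groups did not overlap either, and the log2 fold change was -0.61 (SE 0.137, adjusted p = 0.00448, edgeR). RPL36 of the large subunit read 158, 215 and 250 CPM against 343, 295 and 289, again without overlap (log2 fold change -0.57, SE 0.133, adjusted p = 0.00551, edgeR). In all 3 genes FDI6 replicate 1 was the lowest library and control_FDI6 replicate 1 the highest. The copy RPL39L fell by 0.56 on the log2 scale (adjusted p = 0.00586, edgeR), from 27.8 ± 3.86 to 18.9 ± 2.87 CPM (SD, n = 3 each).

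The 2 genes given as markers of the class changed less. RPL3, which sits close to the site of peptide bond formation, read 1417, 1406 and 1375 CPM against 1727, 1662 and 1694, with a narrow spread in both groups. Its log2 fold change was -0.28 (SE 0.0489, adjusted p = 0.00112, edgeR). RPS6, the small-subunit protein that S6 kinases phosphorylate downstream of mTOR, read 1364, 1344 and 1305 CPM against 1635, 1503 and 1583. The groups were again apart, and the log2 fold change was -0.23 (SE 0.0531, adjusted p = 0.0049, edgeR).

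The stalk proteins, which bind elongation factors, fell together. RPLP0 read 1935, 1994 and 2087 CPM against 2522, 2412 and 2338 (log2 fold change -0.27, adjusted p = 0.00198, edgeR). RPLP1 fell by 0.33 and RPLP2 by 0.41 on the log2 scale, to 1393 ± 83.6 and 474 ± 17.0 CPM (SD, n = 3 each). All 3 were lower in every treated library than in any control. RPSA, a small-subunit protein also known as a laminin receptor, fell by 0.25, and RPS27A, which is made as a fusion with ubiquitin, fell by 0.32, both without overlap.

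A group of 16 genes did not pass the test with FDI-6, and 5 of them were the genes with over 40% of exon bases shared with another gene. RPL4, a large-subunit protein of the exit tunnel, read 3422, 2882 and 2652 CPM against 2986, 2959 and 3031. The treated libraries lay on both sides of the controls, and the log2 fold change was 0.00 (SE 0.0783, adjusted p = 0.98, edgeR). RPL5 and RPL11 bind each other and an rRNA, and the particle they form can bind the p53 regulator MDM2. RPL5 read 753, 670 and 650 CPM against 736, 715 and 749, which overlapped (log2 fold change -0.09, SE 0.064, adjusted p = 0.312, edgeR). RPL11 read 423, 433 and 453 CPM against 662, 563 and 613 and was lower in every treated library (log2 fold change -0.49, SE 0.0672, adjusted p = 0.000209, edgeR). RPL5 and RPL11 are named because of that partnership and were chosen after their values were seen, as was RPL4. In 13 of the 16 genes, which were set apart by not passing, FDI6 replicate 1 was the highest of the treated libraries. Without this library 73 of the 79 genes were called. Across all 79 genes FDI6 replicate 1 was the lowest treated library in 38 and the highest in 33. Without control_FDI6 replicate 1, 46 genes were called. The number past a fold of 1.5 was 1 without control_FDI6 replicate 1, 5 without control_FDI6 replicate 2 or FDI6 replicate 2, 6 without control_FDI6 replicate 3 and 8 without FDI6 replicate 3, and 7 with upper-quartile scaling. The shares of all genes called in these fits are not given, so these counts show only how the calls depended on the fit.

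**Figure D3:**
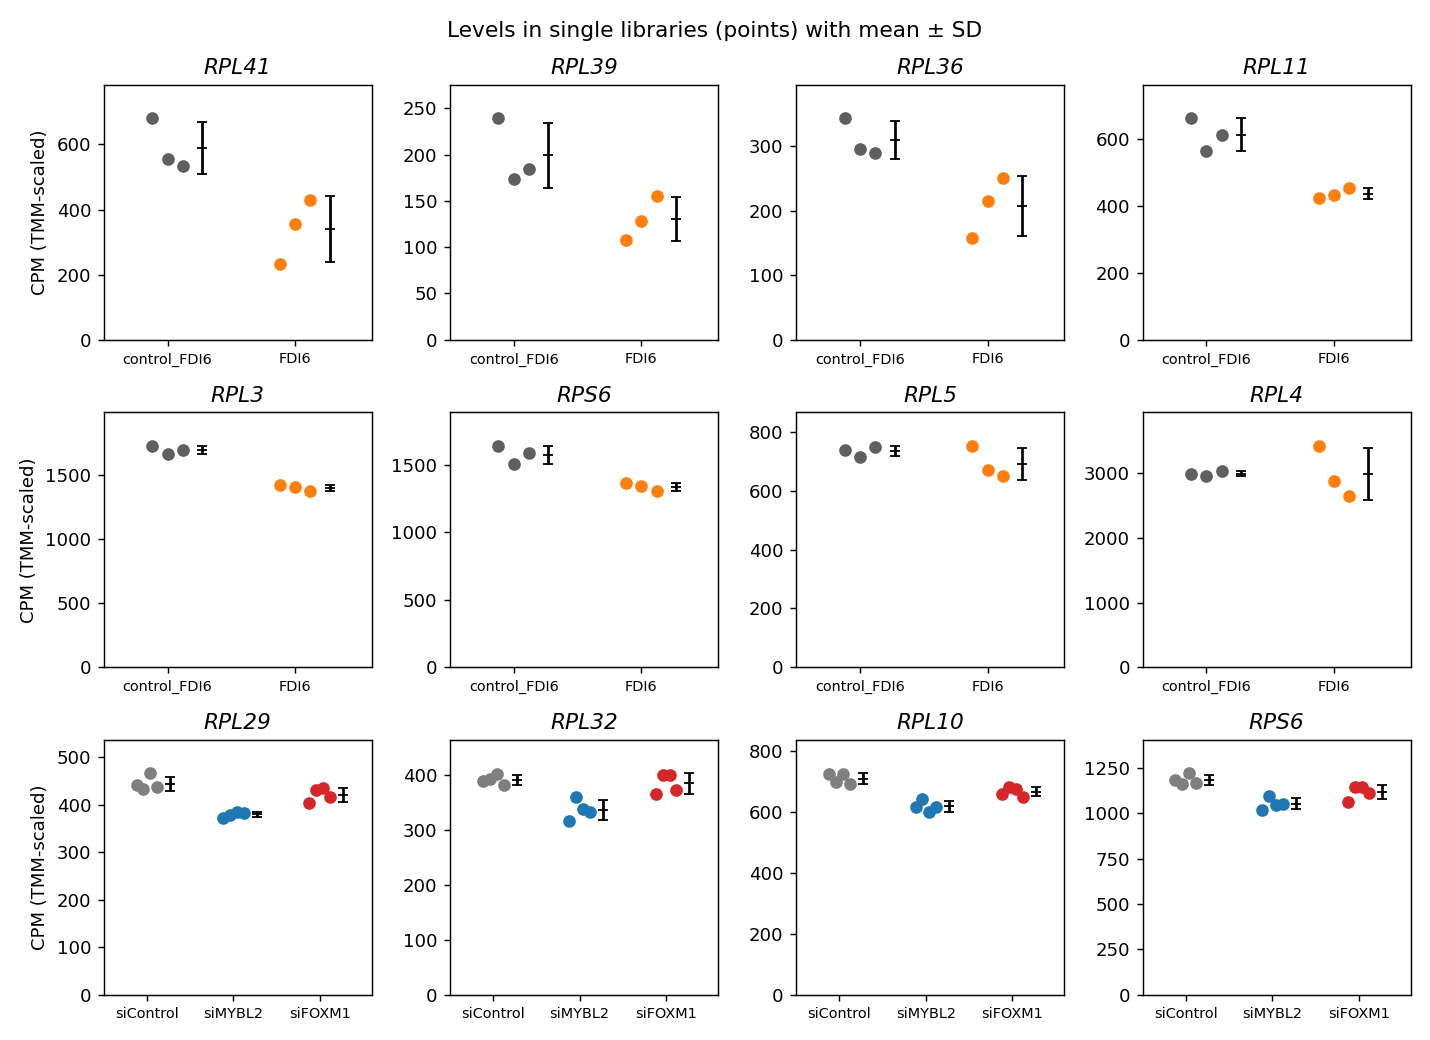
TMM-scaled CPM of single libraries (points) with mean ± SD, for 8 genes with FDI-6 and 4 genes in the single knockdowns; every axis starts at 0. RPL41, RPL39, RPL36, RPL11, RPL3 and RPS6 are lower in each FDI6 library than in any control_FDI6 library, while RPL5 and RPL4 overlap, and RPL29, RPL32, RPL10 and RPS6 are lower in each siMYBL2 library than in any siControl library.

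Marker genes and the fate of read pairs also differed between FDI6 and control_FDI6. All 4 epithelial markers and all 6 genes associated with A549 fell, their sums reading 4167 to 4975 CPM against 7474 to 8129 and 10620 to 11180 against 14340 to 15040. The sum of the 8 markers of other cell types read 5.27 to 9.65 CPM against 17.96 to 20.37. The share of pairs on no annotated feature was 4.86% to 4.93% against 4.0% to 4.37%, and that of ambiguous pairs 9.78% to 10.5% against 10.7% to 11.2%, neither with overlap. The share that did not align was 1.90% to 3.03% against 1.73% to 1.93%. The part of these in the change of the ribosomal protein genes was not tested.

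Genes with a TOP tract at an annotated start and genes in which none was found there both fell. Of the 46 genes with the tract, 42 were downregulated by FDI-6, with a median log2 fold change of -0.33. The 17 others include RPL3, whose run is shorter, and RPL4, with a run further in, so they may hold TOP mRNAs. Of these 17, 16 passed the filter and 11 were downregulated, with a median of -0.24. The difference between these medians was not tested. Genes counted only in part were in both sets, RPL17 in the one without and RPS10, RPL26 and RPL36A in the one with a tract.

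Because ribosomal protein transcripts are short, their change was compared with that of other short transcripts. The median canonical transcript of the 80 genes has 781.5 bases, against 3412 bases for the protein-coding genes tested in the FDI-6 comparison. Among other protein-coding genes, the median log2 fold change with FDI-6 rose with length, from -0.36 for transcripts under 500 bases through -0.34 (500 to 1000), -0.21 (1000 to 2000) and -0.05 (2000 to 4000) to 0.21 over 4000 bases. The ribosomal protein genes read -0.46, -0.28, -0.27, -0.30 and -0.35 in the same bins, with 9, 36, 16, 14 and 4 genes. In the bin of 500 to 1000 bases, which held 36 of them, the other 546 genes had the larger median fall, while 80.6% of the ribosomal protein genes and 49.6% of the others were called lower. Binned by the median length over a gene's transcripts, 50 ribosomal protein genes fell in that bin, and the order turned, with medians of -0.31 for them and -0.28 for 872 other genes and with 82.0% and 41.6% called lower. The share called also depends on the count level of the genes, for which these sets were not matched. Above 2000 bases their medians lay below those of other genes, and 8.7% of the other genes over 4000 bases were called lower. Several ribosomal protein genes have a long canonical transcript beside short ones, for example RPL37 with 7573 bases and a median of 637 over its transcripts. Across genes, Spearman's rho between log2 fold change and length was 0.15 over the 79 genes and 0.45 over 12758 others. Between log2 fold change and GC percent it was -0.15 over the 79 genes and -0.53 over the others. These values share the same 6 libraries and are given as a description.

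**Figure D4:**
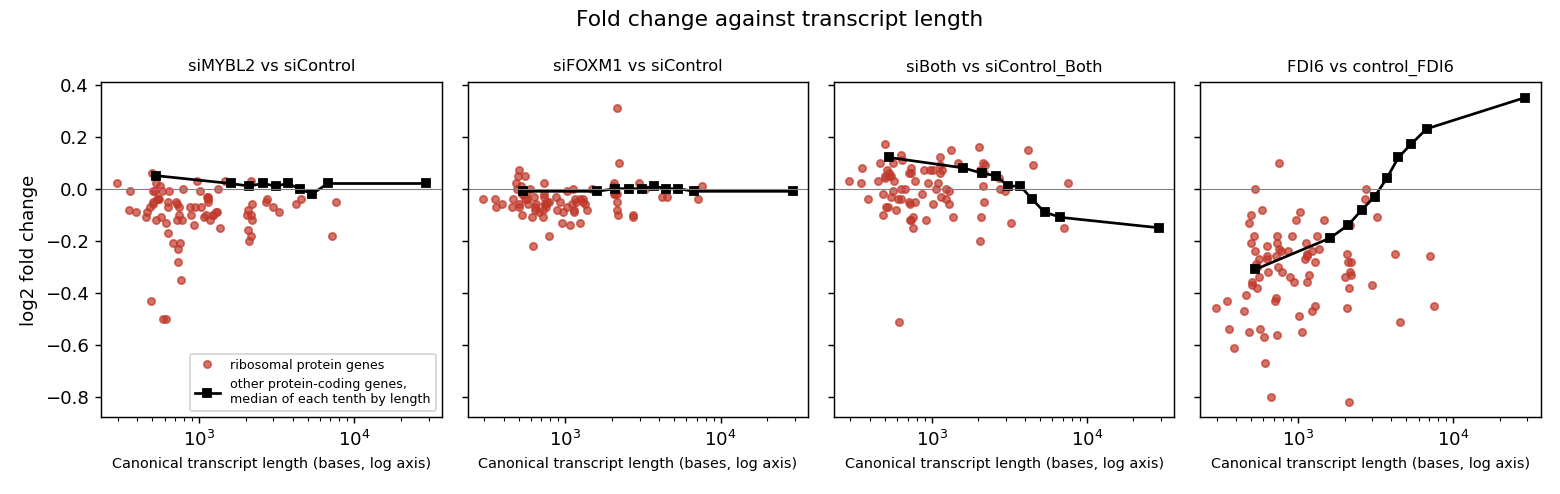
Log2 fold change against canonical transcript length (log axis) for the cytosolic ribosomal protein genes (points) and the median of other protein-coding genes in 10 groups by length (squares). With FDI-6 the squares run from -0.31 for the shortest group to 0.35 for the longest, with siBoth from 0.12 to -0.15, and in the single knockdowns they stay within 0.05 of 0.

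When a trend with transcript length and GC content was removed from each library, the change with FDI-6 was smaller. With canonical lengths, 37 genes were downregulated and 2 upregulated, with a median of -0.15, against 16.7% of all genes tested called lower in the same fit. With the median length over a gene's transcripts, an alternative added after the data were seen, 20 were downregulated and 3 upregulated, with a median of -0.08, against 15.5% of all genes. All of the 20 genes were also called lower by the fit without offsets and by the fit with canonical lengths. They include RPL41 (log2 fold change -0.55 with median lengths), RPL39 (-0.38), RPL11 (-0.33), RPS6 (-0.23) and RPL14 (-0.58). The calls for RPL36, RPL3, RPLP0 and RPLP2 were lost with either set of lengths, and RPL3 then read -0.03 and -0.05. RPS15, of the small subunit, changed from -0.10 to 0.38 with canonical lengths (adjusted p = 0.0192, edgeR), so that it passed as upregulated. Its canonical transcript is short, with a GC content of 61.3%. RPL14, RPL37 and RPS15 were chosen after their values were seen. The size of the fall with FDI-6 therefore depended on whether transcript length and GC were modelled.

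**Figure D5:**
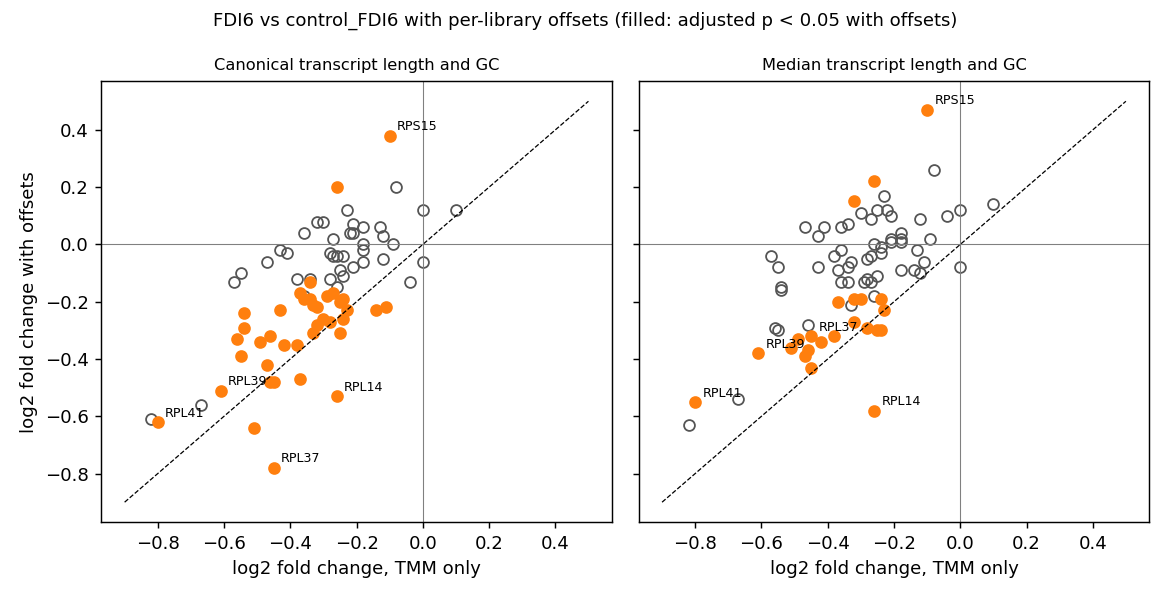
Log2 fold change of 79 genes with FDI-6 when libraries were scaled by TMM alone (x axis) and when a length and GC trend was also removed (y axis), with canonical (left) or median (right) transcript lengths. Filled points passed an adjusted p of 0.05 with offsets; most points lie above the dashed line of equality, RPS15 is among those called higher, and RPL37 moves from -0.45 to -0.78 on the left and to -0.32 on the right.

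With siMYBL2 the change was small and depended on the model. The median log2 fold change was -0.07, a fall of about 5.0%, against 0.01 for all genes tested, and 69 of 78 values were below 0. The test called 3 genes (3.8%), less than the 9.53% of all 16065 genes that were called lower, and 8.53% were called higher. RPL29, a large-subunit protein, read 372, 378, 385 and 383 CPM in siMYBL2 and 441, 433, 466 and 438 CPM in siControl. The groups did not overlap, and the log2 fold change was -0.21 (SE 0.054, adjusted p = 0.0247, edgeR). RPL32, also of the large subunit, read 316, 359, 337 and 332 CPM against 389, 391, 401 and 380, again without overlap (log2 fold change -0.20, SE 0.0592, adjusted p = 0.0426, edgeR). RPL10, which joins the large subunit late and is needed before the subunits can join, read 616, 643, 599 and 617 CPM against 725, 697, 723 and 691. Its groups did not overlap (log2 fold change -0.18, SE 0.0539, adjusted p = 0.0445, edgeR), but 53.7% of its exonic sequence is shared with a gene on the opposite strand. In all, 15 genes were lower in every siMYBL2 library than in any siControl library, against 12.9% of all genes tested, and none was higher in every library, against 10.3%.

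Same-numbered siMYBL2 and siControl libraries deviated together, and when the replicate number entered the fit as a block, 28 of 78 genes (35.9%) were downregulated, against 23.1% of all genes. The estimated changes stayed small, and the 28 include RPS6 (log2 fold change -0.16, adjusted p = 0.00327, edgeR), RPL41 (-0.22, adjusted p = 0.00136), RPLP0 (-0.10, adjusted p = 0.0379) and RPL3 (-0.09, adjusted p = 0.0479). RPS6 read 1019, 1096, 1045 and 1049 CPM in siMYBL2 and 1185, 1161, 1219 and 1164 CPM in siControl, without overlap. RPL3 and RPLP0 likewise did not overlap, and RPS27A read 0.00 in both fits. The called genes were 6 of 31 in the small subunit and 22 of 47 in the large subunit, with medians of -0.05 and -0.10. The number of calls without the block rested on single libraries. It was 0 without siMYBL2 replicate 1, siControl replicate 1 or siControl replicate 3. It was 1 without siMYBL2 replicate 3, siMYBL2 replicate 4 or siControl replicate 2, 4 without siMYBL2 replicate 2 and 6 without siControl replicate 4. With upper-quartile scaling no gene was called, and the median was -0.02 and that of all genes 0.07. Other protein-coding genes of 500 to 1000 bases had a median of 0.05, and the ribosomal protein genes of that length -0.07. The sum of the A549-associated genes was also lower, at 7622 to 12400 CPM against 13940 to 18830, although 1 of the 6 passed the test, and its part in the result was not tested.

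With siFOXM1 no gene was called by edgeR, where 1.09% of 15892 genes were called lower and 0.277% higher. A single gene had an unadjusted p under 0.05, and DESeq2 called a single gene. The median was -0.05 and 65 of 79 values were below 0, and 7 genes did not overlap, all lower, against 5.18% of all genes tested that were lower and 3.98% that were higher without overlap. With the replicate block 15 genes (19.0%) were downregulated, against 14.0% of all genes. These include RPL4 (log2 fold change -0.11, adjusted p = 0.00226, edgeR), RPS2 (-0.13, adjusted p = 0.000941), RPL36 (-0.11, adjusted p = 0.0177) and RPS6 (-0.08, adjusted p = 0.0372). RPL4 read 2069, 2168, 2190 and 2136 CPM against 2313, 2325, 2383 and 2277, without overlap, a fall of 7.6%. RPL3 (-0.05) and RPLP0 (-0.06) did not pass with or without the block.

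With siBoth no gene was called by edgeR either, while 7.77% of 15812 genes were called lower and 4.55% higher. The median was 0.02, equal to that of all genes tested, and 37 of 78 values were below 0. Without overlap, 3 genes were lower and 1 was higher, against 18.6% and 16.4% of all genes. RPL17 was the single gene with an unadjusted p under 0.05, and it alone was called by DESeq2 and by the fit with the replicate block, which called 18.5% of all genes lower (log2 fold change -0.51, adjusted p = 0.0138 with the block, edgeR). It was chosen after its values were seen. It read 4.64, 4.62 and 4.27 CPM in siBoth and 6.25, 6.76 and 6.23 CPM in siControl_Both, without overlap, but it is one of the genes counted only in part. RPL3 (-0.01), RPS6 (-0.11), RPLP0 (0.02) and RPL29 (-0.11) did not pass with or without the block. Other protein-coding genes of 500 to 1000 bases rose by a median of 0.12 and the ribosomal protein genes of that length stayed at 0.00. Without siBoth replicate 2, which had 3.85% of counts on the mitochondrial genome against 6.69% and 7.12% in the others, the median was -0.03. Without siControl_Both replicate 3 it was -0.02. The share of pairs that did not align was 9.09% to 10.9% in siBoth and 7.68% to 7.92% in siControl_Both, and the A549-associated genes summed to 7098 to 8849 CPM against 10310 to 14430, both without overlap. Their part in the result was not tested.

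The differences between responses were tested directly. The level was lower in siMYBL2 than in siFOXM1 for 4 of 79 genes (5.1%), against 13.2% of all genes. These were RPL39L (log2 difference -0.31, adjusted p = 0.0351, edgeR), RPL22 (-0.19, adjusted p = 0.0313), RPL32 (-0.19, adjusted p = 0.0236) and RPL29 (-0.15, adjusted p = 0.0364). The means of RPL39L and RPL22 had not fallen with siFOXM1, at 16.2 against 16.0 and 81.0 against 80.0 CPM in siControl. RPL22 was chosen after its values were seen, and with upper-quartile scaling none of the 4 passed. With the replicate block 18 genes passed, against 25.7% of all genes, all lower in siMYBL2 than in siFOXM1. Between siBoth and siMYBL2 no difference passed with edgeR or DESeq2, 1 gene, RPS19 (log2 difference 0.26), had an unadjusted p under 0.05 with edgeR, and RPS19 alone passed with the block (adjusted p = 0.0184, edgeR). RPS19, a small-subunit protein mutated in Diamond-Blackfan anaemia, was chosen after its values were seen. The share of all genes called in that contrast, in either direction, was 0.304% without the block and 6.58% with it. The log2 fold change was lower with FDI-6 than with siFOXM1 for 28 of 79 genes, against 8.12% of all genes, with a median log2 difference of -0.26. The largest differences among genes with at least 100 CPM were those of RPL41 (-0.71, adjusted p = 0.0137), RPS25 (-0.57, adjusted p = 0.0116, chosen after its values were seen) and RPL39 (-0.56, adjusted p = 0.0103, edgeR). With length and GC offsets 12 genes passed as lower and 1 as higher in this contrast, against 5.19% of all genes called lower. These experiments were run apart, so the agent and the experiment cannot be told apart in that contrast.

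Genes that act beside the ribosomal proteins were tested in the same fits, in 4 lists. The shares of all genes tested that were called lower, to be read beside the counts, were 17.9% with FDI-6 (16.7% with offsets), 9.53% with siMYBL2 (23.1% with the replicate block), 1.09% with siFOXM1 (14.0%) and 7.77% with siBoth (18.5%). Of 9 ribosomal proteins and copies outside the rule, 5 fell and 1 rose with FDI-6, led by RPS27L, a copy that p53 induces (log2 fold change -0.44, adjusted p = 0.000853, edgeR), and RPL7L1, a copy of RPL7 that acts in ribosome assembly (0.28, adjusted p = 0.00573). RPL7L1 fell by 0.31 with siMYBL2 (adjusted p = 0.0256), and RPL22L1, a copy of RPL22, by 0.60 with siBoth (adjusted p = 0.00932). The next list holds genes whose mRNAs belong to the TOP class, most but not all of them translation factors (14 of 15 measured). Of these, 4 were lower with FDI-6, with a median of -0.05, and 3 with siMYBL2, 2 with siFOXM1 and 2 with siBoth. With length and GC offsets 8 fell and 1 rose with FDI-6, and with the replicate block 11 fell with siMYBL2, 5 fell and 1 rose with siFOXM1, and 7 fell and 1 rose with siBoth. The block counts of falls are 78.6%, 35.7% and 50% of the 14 genes. EEF1D, a subunit of the exchange factor of elongation factor 1, fell by 0.56 with FDI-6 (adjusted p = 0.0018). EIF3L, a subunit of initiation factor 3, fell by 0.61 with siFOXM1 (adjusted p = 0.00348) and by 0.56 with siBoth (adjusted p = 0.00336), but read 0.01 with siMYBL2. HNRNPA1, an RNA-binding splicing factor, fell by 0.32 with siMYBL2 (adjusted p = 0.00926).

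Ribosome biogenesis factors (38 of 39 measured) included genes that fell with the knockdown of MYBL2. There 9 fell and 1 rose, with a median of -0.21, and 25 fell and 2 rose with the replicate block. The falls are 23.7% and 65.8% of the list, against 9.53% and 23.1% of all genes. HEATR1, a factor of small-subunit assembly in the nucleolus, fell by 0.82 with siMYBL2 (adjusted p = 0.00263, edgeR) and by 0.86 with siBoth (adjusted p = 0.000912), where 7 of the list (18.4%) fell without the block and 18 (47.4%) with it, against 7.77% and 18.5% of all genes. NMD3, the export adaptor of the large subunit, rose by 0.30 with siMYBL2 (adjusted p = 0.0072). With siFOXM1 none of the list passed with edgeR or DESeq2, 1 had an unadjusted p under 0.05 with either tool, and 13 (34.2%) fell with the block, against 14.0% of all genes. With FDI-6, 13 rose (34.2%) and 10 fell (26.3%), against 21.0% and 17.9% of all genes, with a median of 0.11, NMD3 rising by 0.57 (adjusted p = 0.000164) and NHP2, of the RNPs that make pseudouridine in rRNA, falling by 0.60 (adjusted p = 0.00521). With length and GC offsets 11 rose and 3 fell.

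The proteins of the mitochondrial ribosome, a separate machine whose proteins are also coded by short nuclear transcripts, included many that fell with FDI-6. Of 77 measured, 35 fell (45.5%) and 2 rose with FDI-6, with a median of -0.26, against 17.9% of all genes called lower and 49.6% of other protein-coding genes with transcripts of 500 to 1000 bases. With length and GC offsets 21 fell (27.3%) and 4 rose, with a median of -0.09, against 16.7% of all genes called lower. MRPL52 fell by 0.66 (adjusted p = 0.0012, edgeR) and MRPS30 rose by 0.48 (adjusted p = 0.00103). With siMYBL2, 11 fell (14.3%) and 2 rose, and with the block 30 fell (39.0%) and 4 rose, against 9.53% and 23.1% of all genes called lower, MRPS12 falling by 0.90 (adjusted p = 0.00258) and MRPS28, at 7.19 CPM, rising by 0.47 (adjusted p = 0.0456). With siBoth 4 fell, led by MRPL21 (-0.63, adjusted p = 0.00852), and with the block 8 of 78 fell (10.3%) and 3 rose, below the 18.5% of all genes called lower. With siFOXM1 none passed with edgeR or DESeq2, 4 had an unadjusted p under 0.05 with either tool, and 8 fell (10.4%) and 2 rose with the block, against 14.0% of all genes called lower.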

How the data were processed

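Poly(A) RNA of A549 cells was sequenced as 150 bp read pairs in 24 libraries. Per the paper's methods and the labels, the authors trimmed reads with Trim Galore, aligned them to hg38 with STAR and used HTSeq to count pairs on GENCODE genes. What they deposited are raw counts, whole numbers per gene without normalization. Identifiers were matched to the GENCODE annotation given for this work (58207 of 58721), and lengths and GC are of its transcripts. Chi-square per gene between replicates was 3.57 to 62.8, so no library was a repeat of another. Between 16487394 and 30140550 pairs per library were counted. Treated and control groups of a comparison were fitted alone with edgeR 4.0.16 in R 4.3.3 (TMM scaling, filterByExpr, quasi-likelihood test, no block, Benjamini-Hochberg adjustment over all genes tested), the siMYBL2 minus siFOXM1 difference on the 12 libraries of that experiment, and contrasts between experiments on all 24 libraries. A gene was called at an adjusted p under 0.05. CPM used TMM-scaled library sizes. The method was tested on simulated data with known changes.

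The members and lists were chosen with earlier results of these data known. Named genes were RPL3, RPS6, RPSA, RPLP0, RPLP1, RPLP2, RPS27A, the copies RPL3L, RPL10L and RPL39L, per comparison the 3 largest falls and rises among called members with a mean of at least 100 counts, the 3 highest and 3 lowest levels per kilobase in siControl, MYBL2 and FOXM1, and from each related list the largest called fall and rise. Values of some single genes are not reported here.

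The replicate numbers in the labels were checked for pairing. Over genes, libraries of one number deviated from the means of their groups with correlations of 0.573 to 0.875 for siMYBL2, 0.539 to 0.906 for siFOXM1 and 0.553 to 0.688 for siBoth, so these were taken as pairs, and of -0.288 to 0.161 for FDI-6, which was not. The paper's methods call the replicates biological, but nothing in the labels says whether cultures were separate, so p-values measure the spread between these libraries.

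Alternatives were another tool (DESeq2 1.42.0), other scaling (upper-quartile or RLE), filters (none, or 10 counts as the minimum of a library), a block for the replicate number, offsets per library, block and offsets together, and each library left out. The offsets came from a spline in transcript length and GC (5 degrees of freedom) over genes averaging 50 counts or more. Offsets from length alone and from the median transcript length were added after the data were seen.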

Additional observations from a re-analysis of the deposited data

Results flagged for a closer look

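In the siFOXM1 group, RPS10 stood apart in replicate 3, at 1.73 CPM against 0.775, 0.781 and 0.862 in the other libraries, a gap larger in relation to the range than Dixon's limit for 4 samples. Such a gap appears by chance in about 1 in 20 groups, 57 groups of 4 libraries were examined and 1 was found, and RPS10 is counted only in part.

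The response differed between siMYBL2 and siFOXM1 for 4 genes, with log2 differences of -0.31 for RPL39L, -0.19 for RPL32 and -0.15 for RPL29 among the named ones. The response to FDI-6 differed from that to siFOXM1 for 28 genes. Among the named ones the log2 differences were -0.71 for RPL41, -0.58 for RPL39L, -0.56 for RPL39, -0.38 for RPLP2 and -0.26 for RPL32. The cause of these differences was not tested.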

How the results depend on the processing

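The number of called genes depended on the model, and some values also changed sign. With siMYBL2 it was 3, and it was 8 with DESeq2, 0 with upper-quartile scaling, 0 without a filter, 28 with the replicate block, 32 with offsets and the block, and 5 with offsets from length alone or from the median transcript length. Leaving out single libraries gave 0 to 6. With siFOXM1 the number was 0, and it was 1 with DESeq2, 15 with the block and 25 with offsets and the block. With siBoth it was 0, and it was 1 with DESeq2, with the block and with offsets from length alone, and 7 with offsets and the block. With FDI-6 the 63 calls became 39 with length and GC offsets, with or without the block (median -0.15), 22 with length alone (median -0.09) and 23 with the median transcript length (median -0.08), while leaving out single libraries gave 46 to 73. The FDI-6 numbers did not pair the libraries, and the block there gave 60 calls. The siMYBL2 minus siFOXM1 count of 4 was 0 with upper-quartile scaling, 18 with the block and 22 with offsets and the block. The siBoth minus siMYBL2 count of 0 was 1 with the block. The FDI-6 minus siFOXM1 count of 28 was 44 with upper-quartile scaling, 56 with the block and 13 with offsets. The share of all genes tested called lower also changed with the fit. With the block it was 23.1% with siMYBL2, 14.0% with siFOXM1 and 18.5% with siBoth, against 9.53%, 1.09% and 7.77% without it. For fits whose share over all genes is not given, the counts show only how the calls depended on the fit.

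With FDI-6, offsets turned 4 named genes from lower to higher. RPL29 read 0.12 with length and GC offsets, with or without the block, 0.04 with length alone and 0.17 with the median length. RPS2 read 0.04, with or without the block, and 0.06 with the median length. RPS16 read 0.02, 0.01 with the block, 0.00 with length alone and 0.09 with the median length, and RPLP2 read 0.06 with the median length. Among the other values of named genes, 1076 kept their direction and side of the threshold, 49 lost a call, 38 gained one and 79 changed sign while not called in either fit. Without counts on the mitochondrial genome in the total, the mean share was 4.79% in siMYBL2, 4.70% in siFOXM1, 4.78% in siControl, 4.86% in siControl_Both, 5.32% in siBoth, 5.89% in FDI6 and 7.03% in control_FDI6. The causes were not tested.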
